A study of Mus musculus with 4 samples.

Results

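The genes described here encode the subunits of oxidative phosphorylation, the 4 respiratory complexes and the ATP synthase of the inner mitochondrial membrane. They were chosen by name alone: protein-coding rows whose symbol belongs to the Nduf, Sdh, Uqcr, Cox4 to Cox8 or Atp5 families, or to the mRNA genes of the mitochondrial genome. The rule found 98 of the 54532 rows of the table, 85 of them nuclear and 13 mitochondrial. By complex these were 42 rows of complex I, 4 of complex II, 9 of complex III, 23 of complex IV and 20 of complex V. Atp5o has a pair of rows, so the nuclear rows carry 84 symbols, and the second Atp5o row held 0 counts in every library.

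Complexes I, III and IV pass electrons from NADH to oxygen and pump protons across the inner membrane, complex II feeds in electrons from succinate without pumping, and complex V uses the proton gradient to make ATP. Every subunit of complex II is encoded in the nucleus, whereas the other complexes combine nuclear subunits with a few made inside the organelle from mitochondrial mRNAs, so that both genomes have to supply parts. Keratinocyte progenitors are known to rely heavily on glycolysis, and mitochondrial activity is known to increase as they begin to differentiate.

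RNA was sequenced from cultured epidermal stem cells of C57BL/6 mouse skin, the progenitors that renew the epidermis, kept in EpiLife medium with HKGS supplement. One group received 30 μg/mL ALP, taken to be the polysaccharide of Arctium lappa L. (burdock) that the series title names, and the control group received 0.06% DMSO, the vehicle, both for 48 h. Each group had 2 libraries. No label tells whether DMSO was also present with ALP, or whether a group's libraries are separate cultures or animals. The p-values therefore cover no more than the variation among these 4 samples, part of which may be technical. The letters A and B below only name libraries, and values are given for ALP replicates A and B first and then for control replicates A and B.

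Library totals lay between 15766244 and 17430345 counts. Levels are given in CPM, counts divided by the library size after TMM scaling, and 3 counts corresponded to between 0.170 and 0.194 CPM. The ALP libraries differed from each other more than the controls did: a chi-square comparison of counts over genes gave 24.8 per degree of freedom for the ALP pair and 6.42 for the control pair. All 7 basal keratinocyte markers were present, summing to 36210 and 29850 CPM after ALP and to 48350 and 48540 CPM in the controls, with 4 called lower and 2 called higher. The 4 suprabasal markers, which mark differentiating keratinocytes, summed to 820 and 28.3 CPM against 3214 and 2661 CPM, and 2 of them were called lower. The ALP libraries thus differed from the controls in these markers and also from each other. Lum of fibroblasts, Cd3e of T cells, Myh4 of skeletal muscle and Ucp1 of brown fat were at 0 counts in all 4 libraries. The markers of fibroblasts, melanocytes, leukocytes, endothelium, muscle and brown fat each summed to at most 41.1 CPM. Among them Dcn of fibroblasts was called lower, at 3.07 and 0.517 CPM after ALP against 13.1 and 8.57 CPM. Pecam1 of endothelium was called higher, at 8.33 and 13.8 CPM against 3.96 and 5.54 CPM. No marker of melanocytes was called, nor was Cd68, the only leukocyte marker with enough counts to be tested. The markers of muscle and brown fat had too few counts to be tested. In bulk RNA, fewer cells of a type and less RNA per cell cannot be told apart. What part the shift in keratinocyte markers has in the results below was not tested.

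After ALP, the subunit mRNAs were lower in part, and none was called higher. Of the 98 members, 90 had enough counts to be tested by edgeR's quasi-likelihood test. At an adjusted p under 0.05, 31 of them (34.4%) fell, whereas 12.1% of all 14056 genes tested were called lower. The number called higher was 0, whereas 17.7% of all genes tested were called higher. At an unadjusted p under 0.05, 42 members were lower and 2, Sdha and Ndufa12, were higher. Of all 14056 genes tested, 6513 had such a p in either direction. Unadjusted counts given below from all 4 libraries are to be read against this share. DESeq2's Wald test called 29 members lower and 1, Ndufa12, higher, with 12.5% of its 13773 genes called lower and 2351 called higher. Limma-voom called 33 members lower and 0 higher, with 15.1% of all genes called lower and 2624 of 14056 called higher.

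The changes were small. The median log2 fold change of the 90 members was -0.27, and it was 0.00 over all genes tested. Both ALP libraries lay below both control libraries for 60 of the 90 members (66.7%), compared with 37.5% of all genes tested. Both lay above both controls for 8 members, compared with 38.2% of all genes tested. The groups did not overlap for any of the 31 members called lower. That follows largely from the call, which was made on the same 4 libraries, and adds no support to it. The same holds for each called gene described below. ALP replicate B stood farther from the controls than ALP replicate A: on the log2 scale, the nuclear members differed from the control mean by a median of -0.33 in the former and -0.15 in the latter, with -0.01 and 0.01 in the controls.

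With 2 libraries a group the calls rested on both controls. With either control left out, all or nearly all calls were lost, over all genes as well as among the members. With either ALP library left out, calls rose over all genes as well as among the members. The rise among the members is therefore no result about them. All 31 members stayed below 0 in each of these fits.

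The complexes differed in how many of their nuclear subunits fell. In complex I, 9 of 35 tested nuclear members fell and the median log2 fold change was -0.18. In complex II, 0 of 4 were called and the median was -0.03. In complex III, 4 of 8 fell with a median of -0.29, in complex IV 6 of 14 with a median of -0.44, and in complex V 6 of 17 with a median of -0.24. Taken per library as differences from the control mean, the medians had the order IV, III, I, V, II from the lowest in both ALP libraries. For ALP replicates A and B they were -0.35 and -0.51 for complex IV, -0.18 and -0.40 for complex III, -0.14 and -0.32 for complex I, -0.10 and -0.29 for complex V, and 0.00 and -0.02 for complex II. ALP replicate B lay below ALP replicate A in each of the 5 complexes. These counts and medians describe the lists and carry no test of a difference between complexes. Of all genes tested 12.1% were called lower, and the 0 of 4 of complex II is not set apart from that share.

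**Figure D1:**
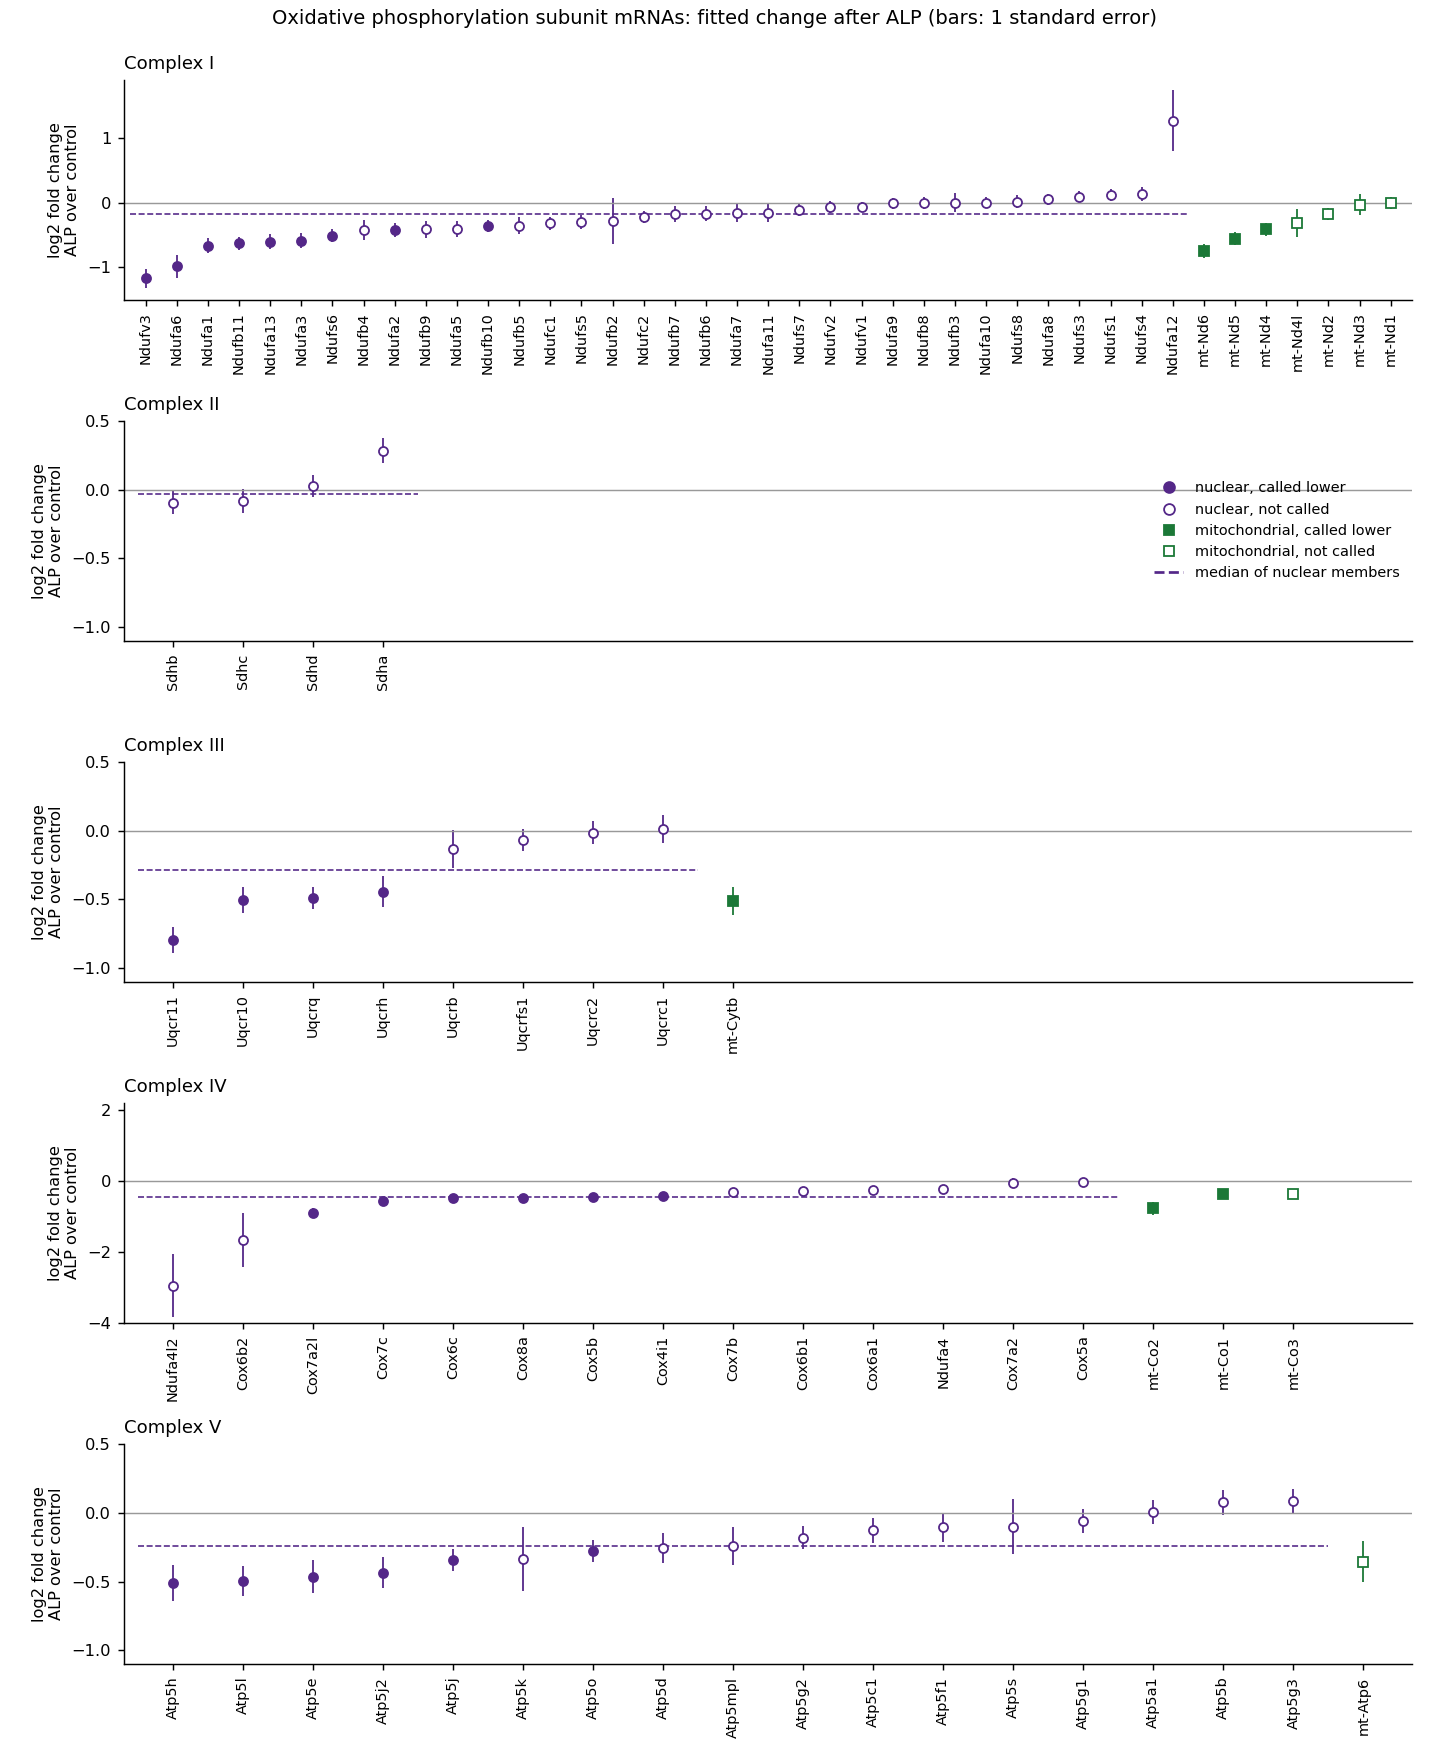
Fitted log2 fold change (ALP over control) of 89 of the 90 tested members, 1 panel per complex, with vertical bars of 1 standard error. Filled symbols passed an adjusted p under 0.05, circles are nuclear and squares mitochondrial genes, and dashed lines are the nuclear medians. The 31 filled symbols all lie below 0, the panel of complex II holds none, and the vertical axes differ between panels.

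Summed over genes, the nuclear members held 8029 and 7499 CPM after ALP against 8485 and 8604 CPM in the controls. The mitochondrial members held 16664 and 16631 CPM against 21878 and 20527 CPM. Both sums were lower in both ALP libraries than in either control. Divided by the mitochondrial sum, the nuclear sum was 0.482 and 0.451 after ALP and 0.388 and 0.419 in the controls, so the ratio lay higher in both ALP libraries. No test was made of these 4 ratios.

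Promoters of nuclear subunit genes are known for sites of NRF1, of ETS factors such as GABPA, and of YY1. Of the 84 nuclear symbols, 68 had at least 1 RefSeq promoter of 300 bases, from 250 before to 50 after the start (GRCm38.p6). Each promoter was searched on both strands for GCGCATGC (NRF1), CCGGAAGT (ETS) and AAGATGGC (YY1). The NRF1 motif can overlap its own reverse complement, and a gene counts once per motif if any of its promoters holds it. NRF1's motif stood in 10 of the 68 genes (14.7%), in 6.06% of tested protein-coding genes with a promoter and in 3.93% of all protein-coding genes with one. YY1's stood in 10 (14.7%), in 5.28% and in 3.57%. The ETS motif stood in 5 (7.35%), in 9.31% and in 5.69%. Among the 21 matched members that fell, 3 held the NRF1 motif, 4 the ETS motif and 4 the YY1 motif, and among the 44 tested but not called these were 7, 1 and 6. A match is a run of letters and does not show that a factor binds there.

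3 of these promoters are printed from 120 bases before to 30 bases after the start, with motif letters in capitals, to show the motifs in members that fell and in 1 that did not. Uqcr11 had the smallest p of all members and holds an ETS motif and, on the other strand, an NRF1 motif near the start (chr10:80406792-80406941, minus strand). Ndufa3 fell too, and its YY1 motif includes the first ATG after the start (chr7:3617253-3617402, plus strand). Ndufa8 holds the same NRF1 motif at nearly the same place as Uqcr11 and was chosen after its values were seen (chr2:36049309-36049458, minus strand). It was at 61.7 and 67.3 CPM after ALP against 61.7 and 62.9 CPM, so the same letters stood before a gene whose groups overlapped.
Uqcr11: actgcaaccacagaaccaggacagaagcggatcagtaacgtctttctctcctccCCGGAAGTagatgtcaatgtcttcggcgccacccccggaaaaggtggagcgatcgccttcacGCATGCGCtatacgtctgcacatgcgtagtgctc
Ndufa3: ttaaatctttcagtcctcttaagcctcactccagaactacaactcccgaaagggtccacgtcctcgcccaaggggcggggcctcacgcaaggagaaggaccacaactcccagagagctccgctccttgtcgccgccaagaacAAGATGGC
Ndufa8: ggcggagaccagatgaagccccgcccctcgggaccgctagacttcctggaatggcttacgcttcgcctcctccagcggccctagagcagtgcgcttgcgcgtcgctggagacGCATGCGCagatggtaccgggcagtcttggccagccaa

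Complex I carries electrons from NADH to ubiquinone through a peripheral arm of flavin and iron-sulfur centres, and its membrane arm pumps protons. Its 7 nuclear core subunits, which hold those centres, had a median log2 fold change of -0.02, and edgeR called 0 of them. There were also 0 at an unadjusted p under 0.05 and 0 by DESeq2 or limma-voom. With 12.1% of all genes tested called lower, 0 of 7 is not set apart from that share. Ndufs1, the largest core subunit, was at 113 and 103 CPM after ALP against 99.8 and 99.7 CPM, so it lay above both controls in both ALP libraries and was not called (log2 fold change 0.12 ± 0.09 SE). Ndufv1, which binds NADH and the flavin, was at 92.5 and 95.2 CPM against 95.3 and 101 CPM. Over the 7 core subunits the log2 fold changes ran from -0.11 to 0.12.

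The 28 accessory subunits, which surround the core and are needed for its assembly and stability, had a median of -0.31. Of these, 9 fell (32.1%, against 12.1% of all genes tested). Ndufv3, an accessory subunit of the NADH-oxidising module (chromosome 17, 31520115 to 31531326), was at 27.1 and 23.1 CPM after ALP against 62.1 and 50.7 CPM. Its log2 fold change was -1.17 ± 0.15 (SE, adjusted p = 0.0161), the steepest among the members called. Ndufa6, which joins the module that binds ubiquinone, was at 19.2 and 14.1 CPM against 34.0 and 31.9 CPM, a log2 fold change of -0.99 ± 0.18 (adjusted p = 0.0190). In both genes the lower control stood well above the higher ALP library.

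Ndufa1, a small subunit of the membrane arm, was at 21.7 and 20.2 CPM against 32.5 and 34.1 CPM, with a log2 fold change of -0.67 ± 0.12 (adjusted p = 0.0185). Ndufb11, another membrane-arm subunit, was at 39.8 and 35.9 CPM against 60.1 and 57.1 CPM, with -0.63 ± 0.10 (adjusted p = 0.0164). Both genes lie on the X chromosome, and 12.9% of the exon bases of Ndufb11 overlap Rbm10 on the other strand. The other 5 accessory members that fell were Ndufa13, Ndufa3, Ndufs6, Ndufa2 and Ndufb10, with log2 fold changes between -0.60 and -0.36. The call of Ndufb10 was lost under DESeq2 and without the low-count filter. Of the exon bases of Ndufa13, 30.0% overlap Tssk6, which held 72 counts over the 4 libraries against 1952 for Ndufa13.

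Not every accessory subunit moved down. Ndufa9, Ndufa10, Ndufb3, Ndufb8 and Ndufa8 had log2 fold changes between -0.01 and 0.05. Ndufs4 was at 32.9 and 34.6 CPM after ALP against 30.3 and 31.1 CPM, above both controls in both ALP libraries. It was not called (log2 fold change 0.14 ± 0.11 SE). Ndufb2 was the lowest of complex I per length, at 5.44 and 4.07 CPM against 7.53 and 4.06 CPM, a mean of 0.937 CPM per kilobase, with overlapping groups. Ndufa12, a subunit of the peripheral arm, was at 13.9 and 39.8 CPM against 11.5 and 10.7 CPM. Both ALP libraries were above both controls, but ALP replicate B stood far above ALP replicate A, and edgeR did not call the gene (log2 fold change 1.27 ± 0.48 SE, adjusted p = 0.0940). DESeq2 did call it. Its pseudogene Gm15920, with 99.5% identity over 402 bases, held 377 and 110 counts after ALP against 342 and 390, and was thus low in the library where Ndufa12 was high. Gene and copy together held 618 and 726 counts against 545 and 578, and their log2 fold change was 0.37 ± 0.16 (SE, adjusted p = 0.122).

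Complex II, succinate dehydrogenase, is also an enzyme of the tricarboxylic acid cycle. None of its 4 genes was called by edgeR, DESeq2 or limma-voom, and at an unadjusted p under 0.05 there were 0 lower and 1 higher. Sdha, the flavin-bearing catalytic subunit, was at 266 and 268 CPM after ALP against 209 and 230 CPM, with a log2 fold change of 0.28 ± 0.09 (SE, adjusted p = 0.0663). Both ALP libraries lay above both controls, and the gene was called higher when either ALP library was left out. Sdhb, the iron-sulfur subunit, was at 60.2 and 63.2 CPM against 65.4 and 66.5 CPM, slightly below the controls. The membrane anchors were nearly level: Sdhc was at 105 and 96.5 CPM against 106 and 108 CPM. Sdhd was at 95.5 and 95.7 CPM against 95.0 and 92.9 CPM. Per kilobase, Sdhd was the most abundant of the 4, with a mean of 77.0 CPM per kilobase, and Sdhb the least, with 28.5.

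Complex III passes electrons from ubiquinol to cytochrome c. Of its small nuclear supernumerary subunits 4 fell, while its large nuclear subunits were not called. Uqcr11, the smallest of them (chromosome 10, 80402997 to 80406830, promoter printed above), was at 39.4 and 36.2 CPM after ALP against 64.1 and 67.1 CPM. Its log2 fold change was -0.80 ± 0.10 (SE, adjusted p = 0.0161). Uqcrq, a small membrane subunit, was at 68.3 and 67.4 CPM against 95.3 and 95.4 CPM, a log2 fold change of -0.49 ± 0.08 (adjusted p = 0.0163). In Uqcrq the libraries of each group lay within 1 CPM of each other.

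Uqcr10, also a single-helix subunit, was at 38.0 and 38.3 CPM against 55.5 and 52.7 CPM, a log2 fold change of -0.51 ± 0.09 (adjusted p = 0.0197). Uqcrh, the hinge protein that helps cytochrome c dock, was at 69.0 and 57.5 CPM against 84.8 and 87.2 CPM, a log2 fold change of -0.44 ± 0.11 (adjusted p = 0.0372). The core proteins Uqcrc1 and Uqcrc2 had log2 fold changes of 0.01 and -0.01, and the Rieske iron-sulfur protein Uqcrfs1 had -0.07. Uqcrc1 was at 361 and 317 CPM against 329 and 344 CPM, with overlapping groups, and was the most abundant nuclear member of complex III per length, at a mean of 81.7 CPM per kilobase. Uqcr11 followed among them at 80.7 CPM per kilobase, a difference smaller than the spread between libraries. Uqcrb, a small subunit on the matrix side and the lowest nuclear member per length at 39.1 CPM per kilobase, was at 36.1 and 29.2 CPM against 36.7 and 35.1 CPM, with overlapping groups, and was not called.

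Complex IV, cytochrome c oxidase, hands the electrons to oxygen. All 14 of its tested nuclear members had a log2 fold change below 0, as did 7061 of all 14056 genes tested. Cox7a2l, which links complexes III and IV in supercomplexes and of which C57BL/6 mice are known to carry a shortened form, was at 107 and 82.7 CPM after ALP against 185 and 171 CPM (chromosome 17, 83501919 to 83514333). Its log2 fold change was -0.91 ± 0.14 (SE, adjusted p = 0.0163). Cox4i1, the largest nuclear subunit and a site where ATP regulates the enzyme, was at 229 and 219 CPM against 308 and 297 CPM, a log2 fold change of -0.44 ± 0.08 (adjusted p = 0.0217). For both genes the ALP libraries were clearly below the controls.

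Cox7c, a single-helix subunit, was at 54.6 and 48.6 CPM against 74.6 and 78.8 CPM, a log2 fold change of -0.57 ± 0.10 (adjusted p = 0.0179). Cox6c, another small membrane subunit, was at 76.3 and 68.3 CPM against 106 and 96.5 CPM, a log2 fold change of -0.48 ± 0.10 (adjusted p = 0.0239). Cox8a and the zinc-binding Cox5b fell by 0.47 and 0.45 on the log2 scale. Cox5a, which binds next to Cox4i1, was at 54.2 and 53.1 CPM against 54.0 and 54.8 CPM, with overlapping groups. Exon bases are shared with a gene on the other strand in Cox4i1 (9.9%, Emc8) and Cox6c (7.0%, Vps13b).

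Several subunits of complex IV exist as alternative isoforms from separate genes, of which one is widely expressed and others are known from muscle, lung or testis. The muscle isoforms Cox6a2, Cox7a1 and Cox8b, the lung isoform Cox4i2 and the testis isoforms Cox7b2 and Cox8c had too few counts to be tested. They held between 0 and 7 counts in any library. Cox4i1 accordingly took at least 99.98% of the Cox4i counts in every library, with 0 and 0 counts of Cox4i2 after ALP against 1 and 0. Cox6a1 took between 99.85% and 99.97% of the Cox6a counts, and was at 176 and 174 CPM against 200.2 and 216 CPM. It was the most abundant nuclear member of complex IV per length (mean 273 CPM per kilobase) and was not called (log2 fold change -0.25 ± 0.09 SE, adjusted p = 0.0748).

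The testis isoform Cox6b2 was the lowest of the tested members of complex IV per length, at 0.516 CPM per kilobase, with 8 and 1 counts after ALP against 19 and 12. Its counterpart Cox6b1 was at 114 and 96.6 CPM against 130 and 124 CPM, and neither was called. Cox8a was at 112 and 94.9 CPM against 143 and 145 CPM, while Cox8b held 1 count and Cox8c 0 over the 4 libraries. Cox7b was at 67.0 and 57.9 CPM against 74.1 and 79.4 CPM and was not called, and Cox7b2 held 0 counts. The widely expressed isoform therefore supplied nearly all counts of each of these subunits in both groups.

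In the Cox7a family the make-up differed between the groups. Cox7a2 was at 75.1 and 59.1 CPM after ALP against 66.5 and 72.3 CPM, with overlapping groups. Cox7a1 held 3 and 4 counts against 6 and 7. The share of the Cox7a counts taken by Cox7a2l was 58.7% and 58.2% after ALP and 73.4% and 70.2% in the controls. Per kilobase, Cox7a2l was at 93.3 and 72.1 CPM against 161 and 149 CPM, and Cox7a2 at 79.6 and 62.6 CPM against 70.5 and 76.6 CPM.

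Ndufa4, long listed with complex I and now counted with complex IV, was at 116 and 102 CPM against 129 and 127 CPM and was not called. Its paralogue Ndufa4l2, a known target of the hypoxia factor HIF1, had 18 and 0 counts after ALP against 65 and 84 counts. Both ALP libraries were below both controls, but the ALP libraries differed, and edgeR did not call it (log2 fold change -2.95 ± 0.89 SE, adjusted p = 0.0560). Ndufa4l2 took 0.892% and 0% of the counts of the pair after ALP and 2.77% and 3.64% in the controls.

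**Figure D2:**
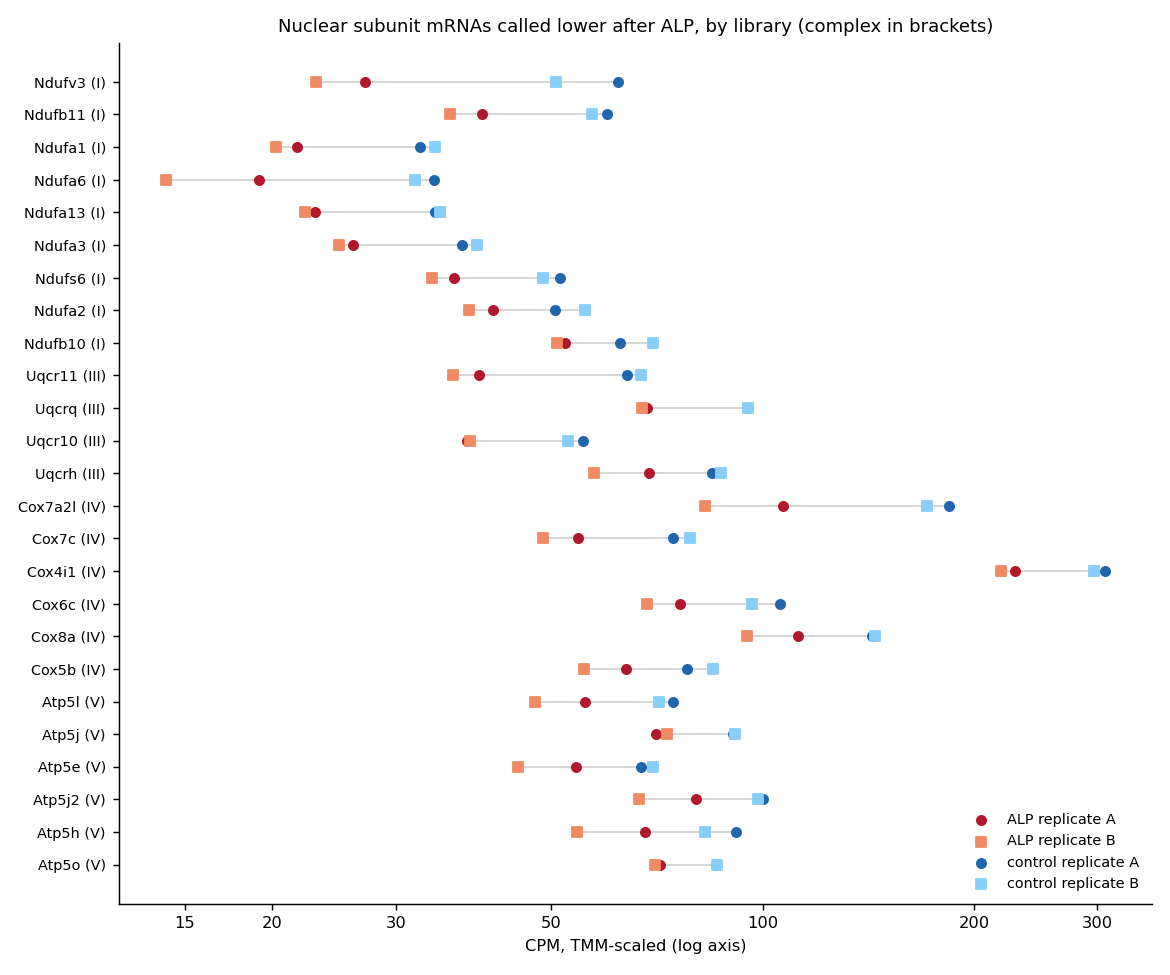
Level of the 25 nuclear members called lower, in CPM on a log axis, with 1 symbol per library (red and orange: ALP replicates A and B, dark and light blue: control replicates A and B). In every row both ALP symbols lie to the left of both control symbols, which follows largely from the call on the same libraries. Levels run from Ndufa6 at 14.1 CPM in ALP replicate B to Cox4i1 at 308 CPM in control replicate A.

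Complex V, the ATP synthase, joins a catalytic F1 head to a membrane rotor of c subunits and holds the head still with a peripheral stalk. In F1, 1 of 5 members fell with a median log2 fold change of -0.13. In the c ring 0 of 3 were called by edgeR, DESeq2 or limma-voom, and 0 had an unadjusted p under 0.05. In the peripheral stalk 3 of 4 tested members fell with a median of -0.31, and among the other membrane subunits and factors 2 of 5 fell with a median of -0.34. Of all genes tested 12.1% were called lower, and 1 of 5 and 0 of 3 are not set apart from that share. These groups are small, and no difference between the parts of complex V was tested. The catalytic subunit Atp5b, the most abundant nuclear member of complex V at a mean of 297 CPM per kilobase, was at 1315 and 1269 CPM after ALP against 1202 and 1250 CPM. Both ALP libraries lay above both controls by a little, and the gene was not called (log2 fold change 0.08 ± 0.09 SE). Its partner Atp5a1 had a log2 fold change of 0.01 ± 0.09. The lowest tested nuclear member per length was Atp5s, also known as coupling factor B, at 3.09 CPM per kilobase, with 6.13 and 6.01 CPM against 6.97 and 6.05 CPM and overlapping groups.

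Atp5l, subunit g at the interface of ATP synthase dimers (chromosome 9, 44912557 to 44920742), was at 55.8 and 47.3 CPM after ALP against 74.5 and 71.1 CPM. Its log2 fold change was -0.50 ± 0.11 (SE, adjusted p = 0.0280). Atp5j, coupling factor 6 of the peripheral stalk, was at 70.5 and 73.2 CPM against 90.8 and 91.3 CPM, a log2 fold change of -0.34 ± 0.08 (adjusted p = 0.0309), and 12.7% of its exon bases overlap Gabpa on the other strand. Atp5e, the epsilon subunit of the central stalk, was at 54.3 and 44.8 CPM against 67.0 and 69.7 CPM, a log2 fold change of -0.46 ± 0.12 (adjusted p = 0.0377). Both ALP libraries were lower than either control in these 3 genes.

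Atp5j2, subunit f of the membrane part, was at 80.4 and 66.7 CPM against 100.2 and 98.5 CPM, a log2 fold change of -0.43 ± 0.11 (adjusted p = 0.0391). Atp5h (subunit d) and Atp5o (the protein that ties the stalk to the head) fell by 0.51 and 0.28 on the log2 scale. The call of Atp5o had an adjusted p of 0.0481 and was lost under DESeq2, without the low-count filter and without ALP replicate B. That of Atp5j was lost without the low-count filter. The 3 genes for the identical c subunit were level in sum, at 431 and 412 CPM after ALP against 416 and 436 CPM. Atp5g3 was at 236 and 220 CPM against 212 and 217 CPM. Atp5g2 was at 106 and 104 CPM against 117 and 122 CPM. Atp5g1 was at 89.0 and 88.2 CPM against 87.6 and 96.9 CPM. Atp5g2 was thus below the controls, Atp5g3 above them and Atp5g1 overlapping, with no call among them.

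The 13 mitochondrial mRNAs are cut from long transcripts that start near the ribosomal RNA genes, 12 of them read from one strand and mt-Nd6 from the other. Of these, 12 were tested and 6 fell, against 12.1% of all genes tested, and the median log2 fold change was -0.37. Per library, the median of their differences from the control mean was -0.30 in the first ALP library and -0.47 in the second. All 12 fitted values were below 0, and 10 had both ALP libraries below both controls. Of all 14056 genes tested, 7061 had a value below 0 and 5278 had both ALP libraries below both controls. Most of the mitochondrial mRNAs are cut from a shared transcript, so they are not separate observations. They took 1.65% and 1.63% of all counts after ALP and 2.22% and 2.07% in the controls. The ribosomal RNAs of the same genome summed to 731 and 738 CPM against 673 and 477 CPM, and neither gene was called. Of them, mt-Rnr1 was at 301 and 301 CPM against 320 and 217 CPM, with overlapping groups. Only mt-Rnr2 had both ALP libraries above both controls, at 430 and 436 CPM against 352 and 260 CPM.

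At the start of the transcript, mt-Nd1 of complex I was at 2763 and 2810 CPM against 2867 and 2737 CPM (log2 fold change -0.01 ± 0.09 SE). Both ALP libraries lay between the controls. mt-Nd2, the next complex I gene, was at 1287 and 1225 CPM against 1462 and 1387 CPM and was not called (-0.18 ± 0.09). mt-Co1, the catalytic subunit of complex IV and the most abundant member of all with a mean of 5918 CPM per kilobase, was at 7781 and 8122 CPM against 10600 and 10070 CPM. It fell by 0.38 ± 0.10 on the log2 scale (SE, adjusted p = 0.0430).

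Farther along, mt-Nd4 of complex I was at 969 and 888 CPM against 1285 and 1191 CPM, a log2 fold change of -0.41 ± 0.10 (adjusted p = 0.0337). mt-Nd5 was at 1217 and 1137 CPM against 1809 and 1656 CPM, a log2 fold change of -0.56 ± 0.10 (adjusted p = 0.0190). mt-Cytb, the only mitochondrial subunit of complex III, was at 2269 and 2115 CPM against 3270 and 2986 CPM, a log2 fold change of -0.51 ± 0.10 (adjusted p = 0.0233). In these 3 genes, which lie in the far part of the genome, no ALP library reached a control. mt-Nd6, on the other strand and sharing 14 exon bases with mt-Nd5, was at 191 and 168 CPM against 316 and 289 CPM, with a log2 fold change of -0.75 ± 0.11 (adjusted p = 0.0161). Reads of mt-Nd5 and mt-Nd6 over the shared bases cannot be told apart, because library strandedness, not given in the sources used here, is needed for that. Without it, counts over the rest of mt-Nd6, which lies between mt-Nd5 and mt-Cytb, cannot be assigned to a strand either.

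The genes in the middle of the genome had far fewer counts. mt-Co2 of complex IV was at 58.4 and 50.4 CPM against 108 and 76.6 CPM and fell by 0.76 ± 0.18 on the log2 scale (SE, adjusted p = 0.0328). mt-Atp6 of complex V was at 49.2 and 39.7 CPM against 62.1 and 51.6 CPM and was not called. mt-Co3 was at 45.4 and 39.4 CPM against 58.7 and 49.6 CPM and was not called. In all 3 genes both ALP libraries were below both controls, and control replicate A was above control replicate B. mt-Nd4l was at 5.44 and 4.40 CPM against 5.95 and 6.34 CPM. mt-Nd3 was at 27.9 and 31.7 CPM against 34.0 and 26.8 CPM, with overlapping groups. mt-Atp8 had between 2 and 6 counts a library and was not tested.

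Near-identical nuclear copies of 7 of these genes lie side by side on chromosome 1, between 24611535 and 24616197 of GRCm38, with 99.7% to 100% identity over the aligned bases. The copies of mt-Co2, mt-Atp6, mt-Co3, mt-Nd3 and mt-Nd4l match over at least 99.0% of the gene, that of mt-Nd4 over 63.6% and that of mt-Co1 over 31.3%. The copy of mt-Atp6, Gm10925, held 1078 and 806 counts after ALP against 1450 and 1268, more than mt-Atp6 itself with 850 and 614 against 1096 and 904. The 5 genes with a nearly full copy therefore have uncertain levels, between 18.6 CPM per kilobase for mt-Nd4l and 107 for mt-Co2. With the counts of each copy added to its gene, mt-Co2 had a log2 fold change of -0.70, mt-Atp6 -0.40, mt-Co3 -0.39, mt-Nd4l -0.42 and mt-Nd3 -0.08, and 31 members were called lower as before.

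Along the strand that holds 11 of the 12 tested genes, the log2 fold changes in order were -0.01, -0.18, -0.38, -0.76, -0.35, -0.35, -0.03, -0.32, -0.41, -0.56 and -0.51, from mt-Nd1 to mt-Cytb. Spearman's coefficient between log2 fold change and start position was -0.48 over these 11 genes, which share their libraries and much of their transcript. Over the 6 of them with at least 10000 counts in each library, a limit chosen after the values were seen, it was -0.94. Those 6 leave out the genes with a nearly full copy. Over all 11 genes it was -0.44 and -0.50 for the ALP libraries and 0.18 for control replicate A, each taken as a difference from the control mean.

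**Figure D3:**
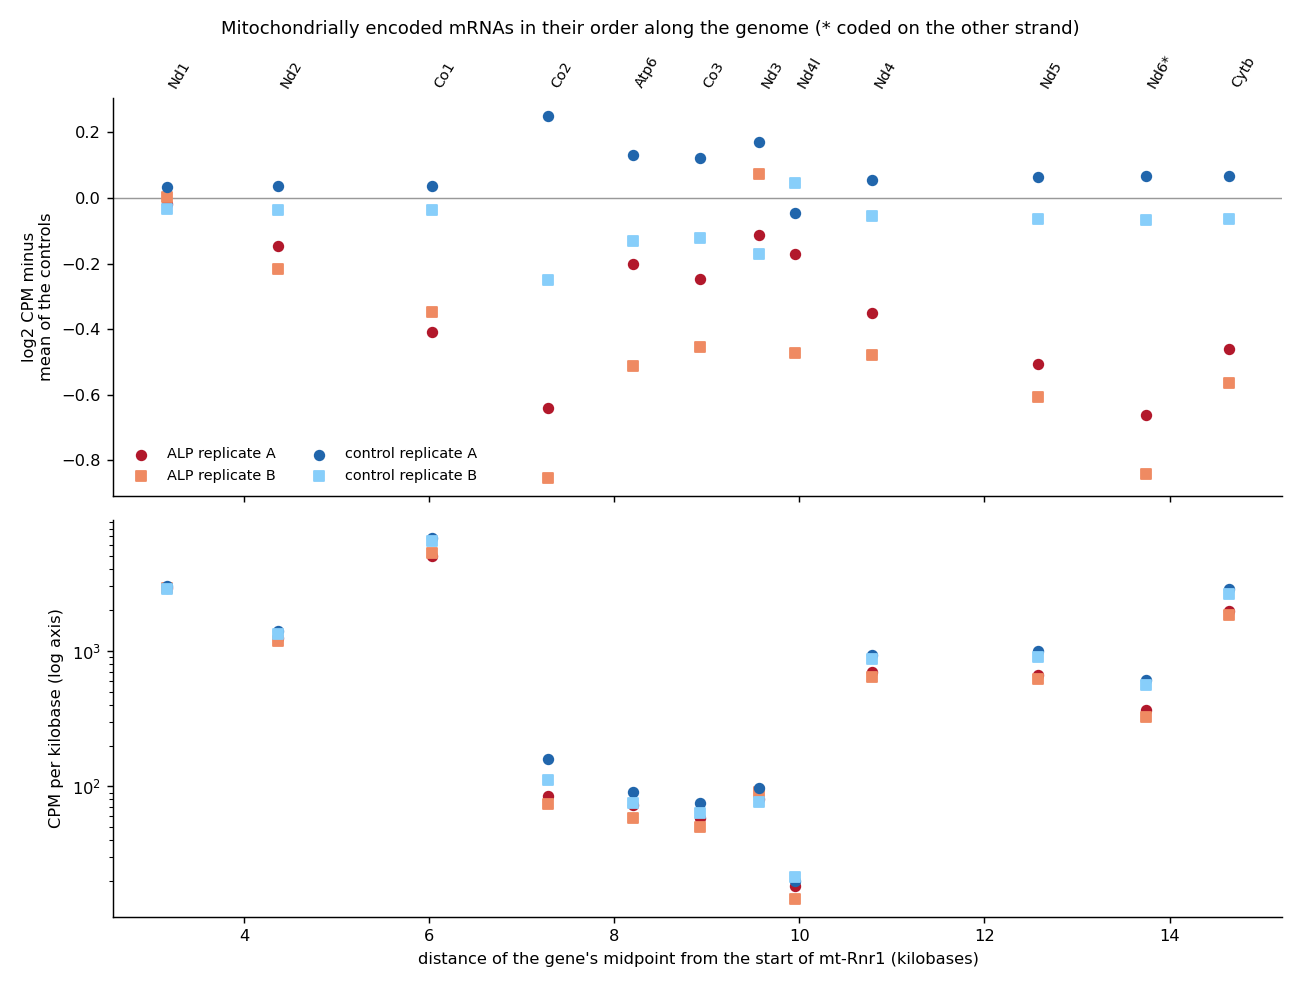
The 12 tested mitochondrial mRNAs by the distance of the gene's midpoint from the start of mt-Rnr1, in kilobases, with 1 symbol per library (red and orange: ALP, blue: control). The upper panel gives the difference from the control mean in log2 CPM and the lower panel CPM per kilobase on a log axis; mt-Nd1 shows overlapping groups, while mt-Nd5, mt-Nd6 and mt-Cytb show both ALP libraries at or below -0.46.

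Genes that serve the same pathway without being subunits by the naming rule were called in both directions, and the shares below are to be read against the 12.1% lower and 17.7% higher of all genes tested. Of 14 carriers, inhibitors and remaining subunits, 13 were tested, 3 fell (23.1%) and 1 rose (7.69%), with a median log2 fold change of -0.21. Cycs, the cytochrome c that carries electrons from complex III to IV, was at 103 and 115 CPM after ALP against 71.8 and 72.7 CPM and rose by 0.59 ± 0.09 on the log2 scale (SE, adjusted p = 0.0163). Atpif1, the inhibitor of ATP synthase reversal, was at 37.6 and 27.0 CPM against 59.3 and 54.1 CPM and fell by 0.81 ± 0.17 on the log2 scale (adjusted p = 0.0263). Higd2a, a factor tied to complex IV and supercomplexes, was at 24.2 and 19.1 CPM against 35.1 and 31.5 CPM and fell by 0.62 ± 0.16 on the log2 scale (adjusted p = 0.0387). The electron carrier protein and the inhibitor thus went opposite ways, each with groups that did not overlap.

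Of 50 assembly factors, 47 were tested, 5 fell (10.6%) and 4 rose (8.51%), with a median of 0.01. Ndufaf4, an assembly factor of complex I, was at 29.8 and 32.7 CPM against 16.2 and 13.9 CPM and rose by 1.05 ± 0.14 on the log2 scale (SE, adjusted p = 0.0161). Uqcc1, which helps the synthesis and insertion of cytochrome b, was at 34.7 and 40.7 CPM against 23.9 and 23.3 CPM and rose by 0.67 ± 0.13 on the log2 scale (adjusted p = 0.0210). Cox14, which binds newly made mt-Co1 protein, was at 22.5 and 23.5 CPM against 36.6 and 33.8 CPM and fell by 0.61 ± 0.12 on the log2 scale (adjusted p = 0.0207). The share of assembly factors that fell lay near that of all genes tested.

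Of 30 genes for transcription, replication and mRNA handling in mitochondria, all were tested, 6 rose, a share near the 17.7% of all genes tested, and edgeR called 0 lower, with 0 lower at an unadjusted p under 0.05 and 0 by DESeq2 or limma-voom. The median of the list was 0.17. Tbrg4 (also FASTKD4), an RNA-binding protein of mitochondrial mRNAs, was at 92.6 and 96.9 CPM against 60.4 and 62.3 CPM and rose by 0.63 ± 0.08 on the log2 scale (SE, adjusted p = 0.0161). Fastkd2, which acts on mitochondrial ribosomal RNA, was at 30.5 and 35.3 CPM against 18.3 and 19.3 CPM and rose by 0.81 ± 0.13 on the log2 scale (adjusted p = 0.0168). Elac2, which trims the ends of mitochondrial tRNAs, was at 50.5 and 55.9 CPM against 33.2 and 37.2 CPM and rose by 0.60 ± 0.11 on the log2 scale (adjusted p = 0.0207). Each of the 3 had both ALP libraries above both controls.

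Of 15 nuclear regulators of mitochondrial biogenesis, 12 were tested, 3 rose (25.0%) and 2 fell (16.7%), against 17.7% and 12.1% of all genes tested. Pprc1, a coactivator related to PGC1, was at 97.6 and 121 CPM against 53.6 and 53.5 CPM and rose by 1.03 ± 0.12 on the log2 scale (SE, adjusted p = 0.0161). Ppard, a nuclear receptor of fatty acid metabolism, was at 213 and 254 CPM against 113 and 129 CPM and rose by 0.95 ± 0.12 on the log2 scale (adjusted p = 0.0161). Esrra, the receptor ERRα that works with PGC1 on respiratory genes, was at 50.2 and 42.6 CPM against 74.8 and 71.0 CPM and fell by 0.65 ± 0.11 on the log2 scale (adjusted p = 0.0176). The regulators called therefore did not share a direction.

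Of 26 genes of the tricarboxylic acid cycle and pyruvate dehydrogenase, all were tested, 4 fell (15.4%, near the 12.1% of all genes tested) and 3 rose (11.5%, below the 17.7%), with a median of 0.07. Pdk2, a kinase that inhibits pyruvate dehydrogenase, was at 3.65 and 1.36 CPM against 14.2 and 14.2 CPM and fell by 2.49 ± 0.41 on the log2 scale (SE, adjusted p = 0.0169). Pdk4, a second such kinase, was also called lower, at 0.116 and 0 CPM against 1.53 and 0.800 CPM (adjusted p = 0.0283). Idh2, the NADP-dependent isocitrate dehydrogenase of mitochondria, was at 59.8 and 40.2 CPM against 96.4 and 88.4 CPM and fell by 0.88 ± 0.19 on the log2 scale (adjusted p = 0.0271). The fourth gene that fell was Pdk1, another such kinase, and the 3 that rose were Idh3a, Ogdh and Mdh2, enzymes of the cycle.

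The subunit genes are short, and length and level moved with the result. Of the 78 tested nuclear members, 58 lay in the shortest quintile (5 groups of equal size) of protein-coding genes (243 to 2500 bases of exon), where 21 of them (36.2%) fell with a median of -0.29. Of the 2383 other genes in that quintile, 14.2% fell with a median of -0.03. Of the members in the next longer quintiles, 3 of 10, 0 of 7, 1 of 2 and 0 of 1 fell. Spearman's coefficient between log2 fold change and gene length was 0.38 across the 78 members and 0.02 across 12264 tested protein-coding genes. By level, 16 of 32 members in the next to highest quintile (44.2 to 95.1 CPM) fell and 3 of 22 in the highest, where 14.5% and 14.6% of other genes fell. What part gene length itself has in the result was not tested.

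**Figure D4:**
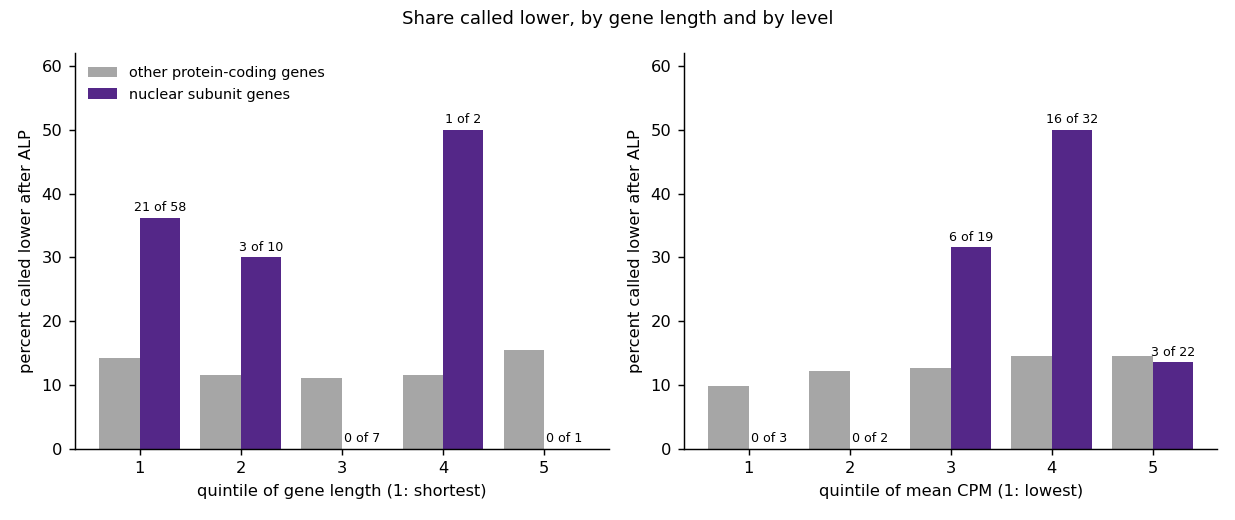
Percent of genes called lower after ALP in quintiles of gene length (left) and of mean CPM (right), for nuclear members (purple, with the number called of the number tested) and other tested protein-coding genes (grey). In the shortest quintile 36.2% of members and 14.2% of other genes fell, and quintiles with 10 or fewer members carry little weight.

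Annotated pseudogenes of any type with at least 98% identity over at least 100 bases were found for 12 of the 84 nuclear symbols. Among those that fell they concern Uqcr11, Cox7a2l, Cox7c, Atp5l and Atp5h, and the others are Atp5f1, Atp5g1, Ndufa12, Ndufb4, Ndufs3, Ndufs5 and Uqcrb. The copy of Uqcr11 held 19 and 18 counts after ALP against 39 and 36, and that of Cox7a2l 7 and 0 against 15 and 7, few beside the genes themselves. For Atp5h the copy held 206 and 169 counts against 364 and 207. For Atp5l 1 of the 3 copies, Gm10221, held 321 and 206 counts against 370 and 417, beside 965 and 732 against 1315 and 1244 for the gene. With the counts of all copies added to their genes, Atp5h had a log2 fold change of -0.51, Atp5l -0.49, Cox7a2l -0.91, Cox7c -0.56 and Uqcr11 -0.80, and 31 members were called lower as before. The treatment of reads that match several places equally well, not given in the sources used here, decides how such genes share reads, so the levels of these 12 genes are less certain than those of the rest.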

How the data were processed

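The authors deposited 1 table of raw counts per gene and library. The submitters' processing notes name HISAT2 2.0.5 and featureCounts 1.5.0-p3 as tools and GRCh38 as the build, but the identifiers are those of mouse: 54495 of 54532 rows occur in GENCODE M21 (GRCm38), 98.2% of them at the same position, as do 92 of the 98 members. Kit and strandedness, not given in the sources used here, remain unknown. The gene length of the deposited table, in bases, was used for CPM per kilobase, and 4 FPKM columns were not used. For 92 of the 98 members this length equals the union of all annotated exons, which can exceed the length of the mRNA. For Atp5f1 it was 4105 bases, beside 1604 for the longest coding transcript. Ranks of genes by CPM per kilobase therefore depend in part on the annotation. Replicate numbers of the columns differ from those of the labels, so columns were assigned to groups only.

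The main test was run with edgeR 4.0.16 (R 4.3.3): filterByExpr (minimum count 10, minimum total 15), TMM scaling and the two-sided quasi-likelihood test on the group alone over all 14056 genes, with Benjamini-Hochberg adjustment over all of them and a threshold of 0.05. It left 2 residual and a median of 3.53 prior degrees of freedom, and the common biological coefficient of variation was 0.144. Differences from the control mean use log2 CPM with a prior count of 2. The floor of 3 counts covers counting error only. The script was tested on simulated counts. DESeq2 1.42.0, limma-voom (limma 3.58.1), other scalings, other filters, left-out libraries and, chosen after seeing the data, added copy counts (mitochondrial or nuclear) served as alternatives. Copies were found with BLAST 2.17.0.

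The members, the gene lists and the tests were chosen with earlier results of these data known. Values are named for all mitochondrial members, the up to 4 members of each complex called in a direction with the smallest p, all Sdh genes, isoform families, the highest and lowest level per length of each complex, and the 3 smallest p-values of each further list. The values of 1 nuclear member of complex I are not reported here by gene, and it is counted in the totals. Other genes named were chosen after their values were seen.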

Additional observations from a re-analysis of the deposited data

How the results depend on the processing

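No paired analysis was possible because the columns of the count table share only 1 replicate number between the groups and carry other numbers than the labels. Of 895 fitted values of single members under alternatives that kept all 4 libraries, 881 kept their direction and their side of the threshold, 5 lost the call, 9 gained it and 0 reversed. Of 360 with a library left out, 62 lost the call, 24 gained it and 0 reversed. The number of members called lower was 31 under RLE scaling, scaling on nuclear genes, scaling on genes outside the members and added copy counts of either genome, 32 under total count scaling, 29 under DESeq2, 33 under limma-voom, 29 without the filter and 35 at a minimum of 10 CPM in 2 libraries. DESeq2 called 1 member higher.

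With 1 library left out at a time, the number of genes called ran from 0 to 7308, of members called lower from 0 to 50 and of members called higher from 0 to 2. A group left with 1 library was assumed to vary like the other group. The medians ran from -0.33 to -0.14 for nuclear members, from -0.49 to -0.29 for mitochondrial members, from -0.33 to -0.13 for complex I, from -0.40 to -0.17 for complex III, from -0.52 to -0.34 for complex IV and from -0.29 to -0.10 for complex V. That of complex II ran from -0.037 to 0.013, with a change of sign to 0.013 without ALP replicate B, and was -0.065 under total count scaling and -0.076 at a minimum of 10 CPM. The cause was not tested. With 2 libraries a group, differences near the spread of the ALP libraries were not resolved.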
